A study of Rattus norvegicus with 6 samples.

Results

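The neuregulin and EGF ligands and the ErbB receptors were examined in crushed and intact sciatic nerves. The set holds 6 ligands (Nrg1, Nrg2, Areg, Ereg, Hbegf and Btc) and 4 receptors (Egfr, Erbb2, Erbb3 and Erbb4). Genes were chosen by symbol, and each symbol matched 1 row, giving 10 of the 30957 Ensembl rat genes in the expression table. RNA-seq was performed on 6 nerves of Sprague Dawley rats, which the methods describe as adult males. The 3 crushed nerves were injured sciatic nerves, collected as the proximal stump at 4 days postinjury (dpi) according to the methods. The 3 intact nerves were the uninjured contralateral nerves, so both groups come from operated animals. The series describes biological replicates, but the labels give no time point and do not say which nerves share a rat, and the p-values below measure only the spread between these samples. The methods describe a digestion with RNase R, which degrades linear RNA, whereas the labels describe no such step.

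Total counts on genes lay between 24844371 and 27139360 per nerve. The labelled tissue was checked against marker lists. Of the 13 Schwann cell markers in the table, 7 had no more than 5 counts in any nerve. They included Sox10 (0 to 1 counts), S100b (0 to 3) and Mbp (0 to 1). Of 15 macrophage and leukocyte markers, 7 had 0 counts in every nerve, Ptprc and C1qa among them. The proliferation gene Mki67 had between 37037 and 43837 counts. Of 6 axon markers, Nefm was at 0 counts and Nefl and Prph had no more than 2, whereas Nefh had 647 to 1002. Many defining transcripts of Schwann cells and macrophages were therefore near or at 0 in both groups, which goes against the labelled tissue. It is doubtful that these libraries hold whole nerve. The rows at 0 cannot settle this, since a row at 0 gives only that no read was counted there. In all, 13532 of the 30957 genes had no count in any nerve, both rows of the widely used gene Hprt1 among them. The counts thus do not show that a cell type was absent. Crushed and intact, the words of the methods, are used below for the libraries labelled injured and normal sciatic nerve tissue, without assignment to a cell type.

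ErbB receptors are tyrosine kinases that signal as pairs. ErbB2 binds no known ligand and serves as a partner, whereas ErbB3 binds neuregulins but has little kinase activity of its own, so that the ErbB2 and ErbB3 pair forms the neuregulin receptor of Schwann cells. Axonal neuregulin 1 is known for its control of Schwann cell survival, migration and myelination. HB-EGF, amphiregulin, epiregulin and betacellulin belong to the EGF branch, are made as membrane precursors and bind EGFR after shedding, and some of them also bind ErbB4.

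In crushed nerves, Erbb3 was the member with the clearest difference, at 0.663 times its intact level, while its partner Erbb2 differed by less (0.917 times). Hbegf was by far the most abundant member in both groups and differed by 5.37%. No read was counted on Egfr or Erbb4 in any nerve. Counts were compared with edgeR's quasi-likelihood test over the 12393 genes that passed its expression filter, with p-values adjusted over all of them by the Benjamini-Hochberg method (adjusted p). All 8 members with any count passed the filter.

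None of the 8 met the study limits (absolute log2 fold change above 1 and unadjusted p under 0.001), which 0.282% of all genes tested met. With DESeq2 and with limma this count was also 0, and 2 members, Erbb3 and Areg, had an unadjusted p under 0.05 in edgeR, as did 16.2% of all genes tested. At an adjusted p under 0.05 with no limit on the fold, 1 member, Erbb3, was lower and 0 were higher. Across all genes tested 3.12% passed this limit, 1.65% lower and 1.47% higher. The 3 crushed nerves lay apart from the 3 intact nerves in 5 of the 8 members (Erbb3, Erbb2, Hbegf, Areg and Nrg2), against 23.0% of all genes tested. The median log2 fold change of the 8 was -0.18, against -0.0017 over all genes tested, and 7 of the 8 had a value below 0, as did 50.6% of all genes.

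**Figure D1:**
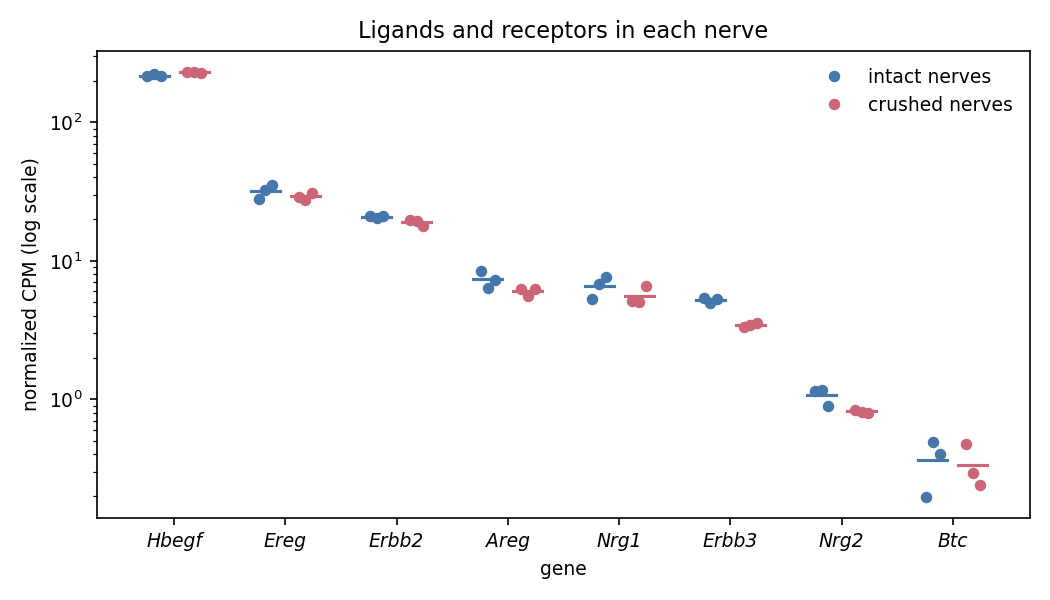
Normalized CPM (log axis; CPM are counts relative to library size, here after TMM scaling) of the 8 members with any count, 1 point per nerve, with horizontal lines for the mean of each group of 3. Hbegf lies above 200 in all nerves, Btc below 0.5, and the Erbb3 points of the crushed nerves lie below those of the intact nerves.

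Erbb3 (ENSRNOG00000004964), the neuregulin-binding receptor, lies on chromosome 7 from 2989340 to 3010350 in the deposited coordinates, for which the submitters' notes name Rnor_6.0. It was counted 135, 130 and 131 times in the intact group (nerves 1, 2 and 3) compared with 90, 94 and 89 times in the crushed group. Normalized values were 5.34, 4.93 and 5.29 CPM in the intact and 3.30, 3.46 and 3.55 CPM in the crushed nerves, and the groups did not overlap. The mean fell from 5.18 ± 0.223 to 3.44 ± 0.130 CPM (SD, n = 3), and the log2 fold change was -0.59 (standard error 0.118, 95% interval -0.85 to -0.33) with an edgeR adjusted p = 0.0222. This call was close to its limit. The log2 fold change was negative in all 12 alternative fits, and the adjusted p was above 0.05 in 9 of them, with edgeR or DESeq2 values of 0.0525 with the replicate number as a block, 0.0501 with DESeq2, and 0.0521 to 0.108 upon omission of intact nerve 1, intact nerve 3 or any crushed nerve. On log2(FPKM + 1), where low genes are compressed, limma gave -0.24 (adjusted p = 0.0783), and on log2(FPKM + 0.1) it gave -0.50 (adjusted p = 0.104).

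Of 6 fibroblast markers tested, 3 were lower in crushed nerves at an adjusted p under 0.05 (Fn1, Col1a1 and Col3a1) and 0 were higher. Pdgfra, on the same list, had a higher FPKM in every crushed nerve (7.76 to 8.63) than in any intact nerve (6.69 to 7.69), with a log2 fold change of 0.19 that did not pass the test (edgeR adjusted p = 0.166). The summed FPKM (counts relative to both gene length and library size) of the 10 fibroblast markers was between 229 and 246 in intact and between 174 and 187 in crushed nerves, nearly all of it from Fn1 and Thy1, with Dcn, Lum, Postn and Col1a2 at 0 counts throughout. Of 5 smooth muscle and pericyte markers tested, Pdgfrb and Cspg4 were lower, and the summed FPKM of all 8 was 40.1 to 43.2 in intact and 33.3 to 34.6 in crushed nerves. Rgs5 was at 0 counts. The part of these genes in the Erbb3 difference was not tested, and in bulk RNA fewer cells of a type and less RNA per cell cannot be told apart. The 13 Schwann cell markers summed to 37.6 to 38.5 FPKM in intact and 39.5 to 41.5 in crushed nerves, with Cdh19 and Mag at 0 counts, and none of the 6 tested passed an adjusted p of 0.05. Among all genes tested, the 3 whose log2 profile over the 6 nerves lay nearest to that of Erbb3 were Fn1, the gene listed as AY172581.1, and Sh3bp5, with root mean square distances of 0.0558, 0.0609 and 0.0643, against a median of 0.310 for all genes. Erbb3 was picked by its p, so genes near it mostly share its difference between the groups. Their log2 fold changes were -0.59, -0.58 and -0.52, and a link between these genes was not tested.

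Erbb2 (ENSRNOG00000006450), the partner receptor, lies on chromosome 10 from 86367596 to 86391728. Its counts were 536, 532 and 519 when intact compared with 540, 529 and 447 when crushed, or 21.2, 20.2 and 21.0 against 19.8, 19.5 and 17.8 normalized CPM. All crushed values lay below all intact values, by a small margin. The log2 fold change of -0.12 (95% interval -0.28 to 0.03) did not pass the test (edgeR adjusted p = 0.432). Reads per length put Erbb2 above Erbb3 in every nerve, at 3.38 ± 0.0843 against 0.868 ± 0.0370 FPKM in intact and 3.13 ± 0.171 against 0.582 ± 0.0219 FPKM in crushed nerves (SD, n = 3). The ratio of Erbb2 to Erbb3 FPKM was 3.86, 3.98 and 3.85 in the intact group compared with 5.83, 5.47 and 4.88 in the crushed group, so that the groups did not overlap. Erbb3 made up 20.4% ± 0.294 of the summed Erbb2 and Erbb3 FPKM in intact and 15.7% ± 1.20 in crushed nerves. Whether the fold changes of these receptors differ was not tested.

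**Figure D2:**
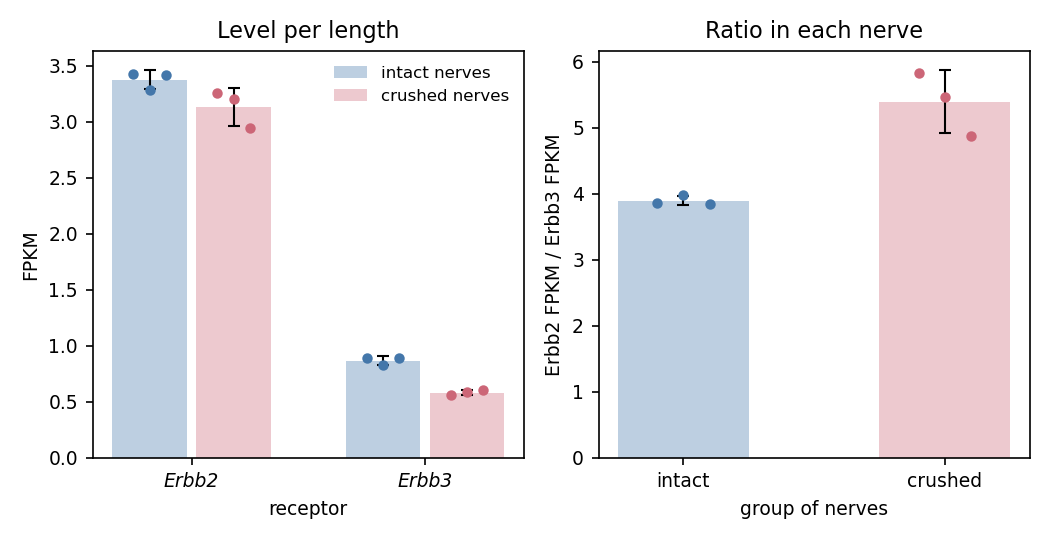
Left, FPKM of Erbb2 and Erbb3 in each nerve (points), with bars for the mean and error bars for the SD of 3 nerves. Right, the ratio of Erbb2 to Erbb3 FPKM in each nerve, between 3.85 and 3.98 in intact and between 4.88 and 5.83 in crushed nerves.

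Egfr (ENSRNOG00000004332), the receptor of the EGF branch, lies on chromosome 14 from 99919485 to 100098796, and Erbb4 (ENSRNOG00000014248), the neuregulin receptor that has its own kinase activity, on chromosome 9 from 75021790 to 75528644. Both had 0 counts in each of the 6 nerves. A count of 0 allows a level of up to 3 counts, which was between 0.110 and 0.121 normalized CPM in these libraries, for counting error only. Of the 30957 genes, 13532 had no count in any nerve, and these included both rows listed as Hprt1, a purine salvage enzyme used by nearly all cells. How reads were assigned to genes is not given in the sources used here, so a row at 0 gives only that no read was counted there. Erbb2 and Erbb3 were thus the only receptors of the family with a measured level.

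The 250 bases before the start of Erbb2 and of Egfr are shown as those of a measured receptor and of the EGF branch receptor on which no read was counted. They were taken from RefSeq on the GRCr8 assembly, where 7 of the 10 members had an entry and Nrg1, Ereg and Erbb3 were not matched. Capitals mark GGGCGG, the GC box bound by Sp1 family factors, read on either strand.
Erbb2, chr10:83907351-83907600 on the plus strand: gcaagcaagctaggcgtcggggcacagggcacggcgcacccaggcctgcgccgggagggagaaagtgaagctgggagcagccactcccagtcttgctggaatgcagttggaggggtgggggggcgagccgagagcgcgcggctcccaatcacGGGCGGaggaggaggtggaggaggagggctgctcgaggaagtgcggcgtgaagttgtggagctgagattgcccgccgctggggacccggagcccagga
Egfr, chr14:95378376-95378625 on the plus strand: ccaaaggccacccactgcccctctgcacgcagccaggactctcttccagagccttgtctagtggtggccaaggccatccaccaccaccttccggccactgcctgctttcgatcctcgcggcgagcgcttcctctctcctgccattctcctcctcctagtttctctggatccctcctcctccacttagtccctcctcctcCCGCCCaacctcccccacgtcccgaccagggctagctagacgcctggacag

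Each window holds 1 GC box, beginning 98 bases before the start of Erbb2 and 51 bases before that of Egfr. At least 1 GC box was found in 30.5% of 33469 rat promoter windows of this length. Neither window holds TATAAA, TGACGTCA or TGANTCA.

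Among the ligands, Hbegf (ENSRNOG00000018646), which encodes heparin-binding EGF-like growth factor, had the highest level. It lies on chromosome 18 from 29329764 to 29340403. Intact nerves 1, 2 and 3 had 5465, 5859 and 5327 counts (216, 222 and 215 normalized CPM), and crushed nerves 6301, 6265 and 5679 counts (231, 231 and 227 CPM). The crushed nerves were the higher in each case, with no overlap. The log2 fold change of 0.08 (95% interval -0.01 to 0.16) did not pass the test (edgeR adjusted p = 0.356), and the interval reached up to 1.12-fold. Hbegf took 80.2% ± 1.22 of the summed FPKM of the 6 ligands in intact and 82.9% ± 0.992 in crushed nerves (SD, n = 3). The genes with the nearest profile were P4hb, Hadha and Cad, at root mean square distances of 0.00947, 0.00986 and 0.0101 on the log2 scale, against a median of 0.104. They too had nearly the same difference between the groups (log2 fold changes of 0.07, 0.08 and 0.08), and a link was not tested.

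Ereg, Areg and Btc, which encode epiregulin, amphiregulin and betacellulin, are neighbours on chromosome 14, with no other gene of the table between them. Btc (ENSRNOG00000002728) lies from 18231860 to 18272484, Areg (ENSRNOG00000002754) 249 kb further at 18521930 to 18531179, and Ereg (ENSRNOG00000002771) another 45.2 kb on at 18576355 to 18591394. Their levels were far apart, at 15.1 ± 1.88 FPKM for Ereg, 6.41 ± 0.847 for Areg and 0.147 ± 0.0612 for Btc in intact nerves (SD, n = 3). Ereg counts were 703, 858 and 878 in intact and 788, 751 and 779 in crushed nerves. Its groups overlapped, with a log2 fold change of -0.13 (95% interval -0.32 to 0.07, edgeR adjusted p = 0.515). Areg had 212, 169 and 180 counts in intact and 170, 152 and 157 in crushed nerves, or 8.38, 6.40 and 7.27 against 6.22, 5.60 and 6.27 CPM. The crushed nerves lay below the intact nerves, the nearest values being 6.27 and 6.40 CPM. Its log2 fold change of -0.29 (95% interval -0.55 to -0.02, unadjusted p = 0.0403 in edgeR) did not pass the adjusted test (adjusted p = 0.279). Btc had 5, 13 and 10 counts in intact and 13, 8 and 6 in crushed nerves, and the 95% interval of its fold ran from 0.475 to 1.81 (log2 fold change -0.11). Its sign turned upon omission of intact nerve 2 or crushed nerve 3, to log2 fold changes of 0.179 and 0.0745.

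The windows of Areg and Btc are shown because they are the ligands of the cluster with an entry, and their levels differed in every nerve. Capitals mark TGACGTCA (the cAMP response element, CRE), TATAAA and GGGCGG on either strand, and the sequences are again from RefSeq on GRCr8.
Areg, chr14:17265642-17265891 on the minus strand: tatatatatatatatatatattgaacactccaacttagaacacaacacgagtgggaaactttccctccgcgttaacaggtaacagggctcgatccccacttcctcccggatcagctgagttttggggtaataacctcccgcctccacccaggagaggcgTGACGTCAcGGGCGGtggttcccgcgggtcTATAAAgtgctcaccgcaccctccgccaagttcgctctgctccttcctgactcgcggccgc
Btc, chr14:16992418-16992667 on the plus strand: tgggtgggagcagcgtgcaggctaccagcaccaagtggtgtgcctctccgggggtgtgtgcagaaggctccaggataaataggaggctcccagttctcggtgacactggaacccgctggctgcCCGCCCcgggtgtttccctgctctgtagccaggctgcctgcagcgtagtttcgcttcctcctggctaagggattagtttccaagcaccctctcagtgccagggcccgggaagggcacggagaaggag

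The Areg window holds a CRE beginning 91 bases before the start, a GC box at 82 bases and TATAAA at 61 bases, none overlapping another. The Btc window holds a GC box at 127 bases and none of the other motifs. Over all windows 1.59% hold the CRE, 12.9% TATAAA and 6.34% TGANTCA, the AP-1 site, which neither window has. Such matches describe the sequence only.

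The neuregulins were less abundant than Hbegf, Ereg and Areg. Nrg1 (ENSRNOG00000010392), which encodes the axonal signal to Schwann cells, lies on chromosome 16 from 63837216 to 64057434. The gene was counted 134, 178 and 190 times in intact and 140, 136 and 165 in crushed nerves, or 5.30, 6.75 and 7.67 against 5.13, 5.01 and 6.59 normalized CPM. The groups overlapped, since intact nerve 1 was lower than crushed nerve 3. The log2 fold change of -0.24 had a 95% interval from -0.59 to 0.11 (edgeR adjusted p = 0.495). Counts were summed over the gene, so its isoforms could not be told apart. Nrg2 (ENSRNOG00000019093), a second neuregulin gene, lies on chromosome 18 from 28835417 to 29015552, 314 kb from Hbegf with 4 genes between them. The gene was counted 29, 31 and 22 times in intact and 23, 22 and 20 in crushed nerves. Its normalized values of 1.15, 1.17 and 0.888 CPM in intact nerves lay above the 0.842, 0.810 and 0.798 CPM of crushed nerves, with a log2 fold change of -0.39 (95% interval -0.90 to 0.12, edgeR adjusted p = 0.444). In FPKM, Nrg1 was at 1.23 ± 0.229 and Nrg2 at 0.258 ± 0.0375 in intact nerves.

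**Figure D3:**
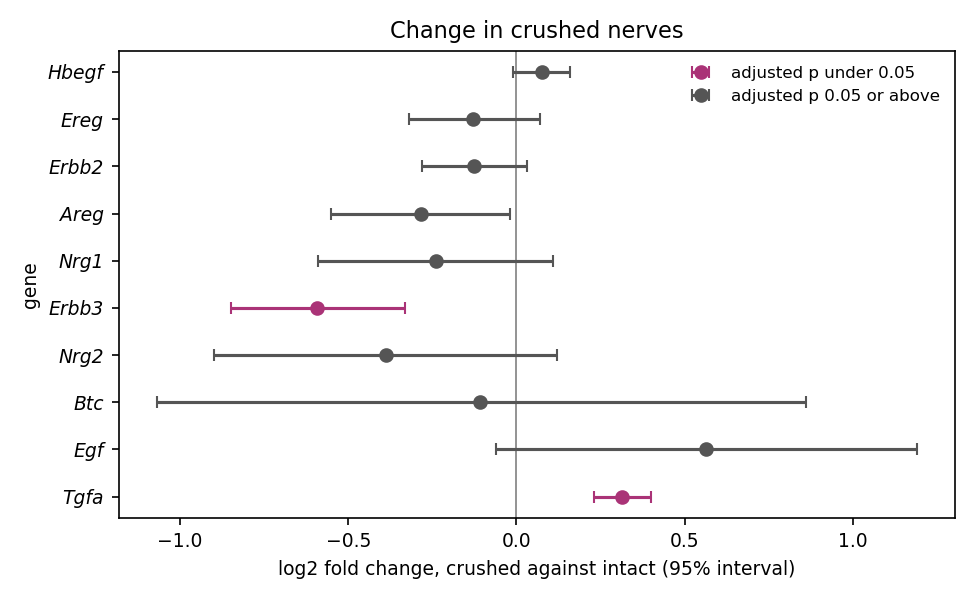
Log2 fold change of crushed against intact nerves with its 95% interval (n = 3 nerves each) for the 8 members with counts, from the highest to the lowest CPM, and for the other EGF ligands Egf and Tgfa. Erbb3 and Tgfa have an adjusted p under 0.05, and Btc has the widest interval, from -1.07 to 0.86.

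Ordered by FPKM, the members ran Hbegf, Ereg, Areg, Erbb2, Nrg1, Erbb3, Nrg2 and Btc in both groups. No neighbours in this order had overlapping ranges over the 3 nerves of a group. The closest were Nrg2 and Btc, whose nearest nerves were at 0.195 and 0.194 FPKM in crushed nerves, a gap that rests on few counts. The summed FPKM of the 6 ligands was 117 ± 2.19 in intact and 121 ± 0.736 in crushed nerves, and that of Erbb2 and Erbb3 was 4.25 ± 0.121 and 3.72 ± 0.152 (SD, n = 3). The ligand sum does not include Tgfa, and no ratio of ligand to receptor transcripts is given, since the rows of Egfr and Erbb4 carry no level.

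The other ligands of the family were Egf, Tgfa, Epgn, Nrg3 and Nrg4. Tgfa, which encodes transforming growth factor alpha, another EGFR ligand, was the most abundant of these. It lies on chromosome 4 from 117962319 to 118046344, with counts of 3012, 3167 and 2869 in intact and 3989, 3991 and 3715 in crushed nerves. At 119, 120 and 116 against 146, 147 and 148 normalized CPM, every crushed nerve was above every intact nerve. Tgfa rose by 0.31 on the log2 scale (standard error 0.0390, 95% interval 0.23 to 0.40, edgeR adjusted p = 0.00118), and it passed the adjusted test in all 12 alternative fits. The ratio of Hbegf to Tgfa FPKM was 3.54 to 3.63 in intact and 2.99 to 3.09 in crushed nerves. Egf had 24, 19 and 35 counts in intact and 36, 35 and 49 in crushed nerves, with a log2 fold change of 0.56 (95% interval -0.06 to 1.19, edgeR adjusted p = 0.365). Epgn had 1 count in 1 nerve, and Nrg3 and Nrg4 had none. The list thus held 1 gene that rose and 0 that fell of 2 tested.

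Shedding of the ligand precursors depends on ADAM metalloproteases and on the iRhom proteins that carry ADAM17 to the cell surface. The list of sheddases and their regulators also held Bace1, which encodes neither an ADAM protease nor an iRhom (log2 fold change -0.10, edgeR adjusted p = 0.607). Of the 9 genes of this list that were tested, 1 rose and 0 fell at an adjusted p under 0.05, with a median log2 fold change of -0.04. Rhbdf2, which encodes iRhom2, had 16.0, 13.7 and 13.9 normalized CPM in intact and 20.2, 20.0 and 17.6 in crushed nerves. Its groups did not overlap, and it rose by 0.40 on the log2 scale (standard error 0.0908, edgeR adjusted p = 0.0395), although the adjusted p was above 0.05 in 6 of 12 alternative fits. Adam17 itself, the main sheddase of several EGFR ligands, was at 123 ± 4.47 CPM in intact and 128 ± 5.63 in crushed nerves (edgeR adjusted p = 0.587). Adam15 had the lowest value of the list (log2 fold change -0.12, adjusted p = 0.386). Timp3, an inhibitor of ADAM17, had 0 counts in every nerve.

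Downstream of the receptors, 32 adaptor and effector genes of the MAPK, PI3K and STAT branches were tested, of which 1 rose and 0 fell, with a median log2 fold change of 0.01. Stat3, a transcription factor phosphorylated after receptor and cytokine stimulation, had 217, 211 and 205 normalized CPM in intact and 278, 271 and 269 in crushed nerves, with no overlap. It rose by 0.37 on the log2 scale (standard error 0.0395, edgeR adjusted p = 0.000421). Grb7, which encodes an adaptor that binds ErbB2, had the lowest value, -0.50, from 19, 21 and 20 counts in intact and 15, 14 and 15 in crushed nerves (adjusted p = 0.371). Grb2 is listed in more than 1 row, of which 1 was tested, and reads could be split between its rows. The row not tested had 2 to 4 counts per nerve, against 1721 to 2188 on the row tested.

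Of 17 feedback regulators of the receptors and of MAPK tested, 1 rose and 1 fell. Dusp4, a phosphatase that inactivates MAPK, had 58.8, 62.2 and 60.8 normalized CPM in intact and 42.5, 44.6 and 41.9 in crushed nerves. It fell by 0.49 on the log2 scale (standard error 0.0520, edgeR adjusted p = 0.000369). Socs3, a suppressor of cytokine signaling, rose from 84.2 ± 5.97 to 101 ± 2.35 CPM (log2 fold change 0.26, edgeR adjusted p = 0.0311), with an adjusted p above 0.05 when any nerve but intact nerve 1 was left out. The 14 early genes tested, which growth factors induce within minutes to hours, included 2 that rose (Junb and Ier3) and 1 that fell (Egr1). Junb, a subunit of the AP-1 transcription factor, rose from 65.3 ± 3.53 to 109 ± 5.78 CPM (log2 fold change 0.75, edgeR adjusted p = 3.73e-05). Egr1, a zinc finger factor of the MAPK response, fell from 85.5 ± 6.93 to 51.3 ± 1.58 CPM (log2 fold change -0.74, edgeR adjusted p = 8.91e-05). Ier3, an early response gene linked to cell survival, rose from 141 ± 9.09 to 165 ± 6.01 CPM (log2 fold change 0.23, edgeR adjusted p = 0.0442), but the adjusted p was above 0.05 in 7 of 12 alternative fits, at 0.0730 with the replicate number as a block and up to 0.178 when 1 nerve was omitted.

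**Figure D4:**
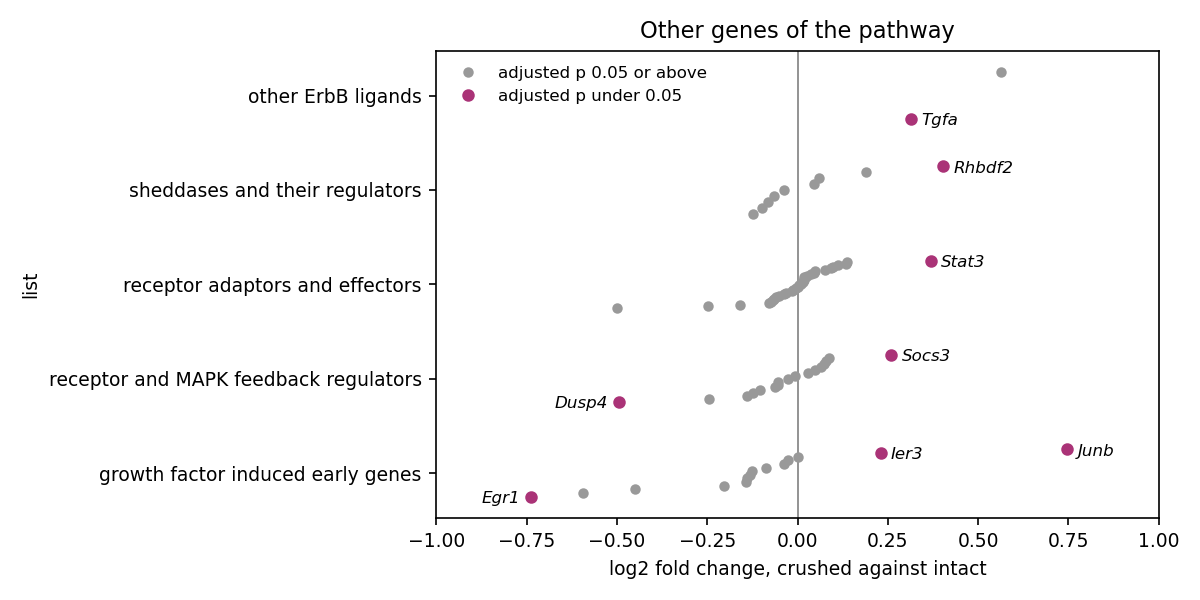
Log2 fold change of crushed against intact nerves for each gene tested in 5 lists of other pathway genes, 1 point per gene, with the 8 genes at an adjusted p under 0.05 named. Most points lie near 0, and Junb (0.75) and Egr1 (-0.74) lie farthest out on opposite sides.

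In all, 6 of the 74 other pathway genes tested rose and 2 fell at an adjusted p under 0.05, which is 10.8% of them, against 3.12% of all genes tested. The lists were chosen with earlier results of these data known, and whether these shares differ was not tested. The median log2 fold change of the 74 genes was -0.01, and 0 met the study limits. Without intact nerve 3, crushed nerve 1 or crushed nerve 2, the number that rose was 3 in each case, and the number that fell was 2 in every alternative fit.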

How the data were processed

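RNA-seq of 6 rat sciatic nerves was used. Per the labels, the submitters' processing notes name HISAT2, StringTie 1.3.0 and Rnor_6.0; the counting rule and annotation release are not given in the sources used here. The deposited table holds a raw count per gene and nerve, and FPKM values that the authors derived from them, with 1 implied length for each gene. Sample titles identified all 12 value columns, with 0 left over. Groups come from the tissue label. Counts were compared with edgeR 4.0.16 (R 4.3.3; quasi-likelihood test, TMM factors, its expression filter, no replicate block) over all 6 nerves, with Benjamini-Hochberg adjustment over 12393 genes. The standard error comes from the test statistic, and the 95% interval from its degrees of freedom. The calculation was tested on simulated data.

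The members and lists were chosen with earlier results of these data known. Named genes are the 10 members, all genes of 5 pathway lists with an adjusted p under 0.05, the highest and lowest gene of a list, and the 3 nearest profiles of the member with the smallest p in each direction; other genes named were chosen after their values were seen. Alternatives were DESeq2 1.42.0, RLE factors, no filter (at least 1 count over the nerves), limma 3.58.1 on log2(FPKM + 0.1) and log2(FPKM + 1), the replicate block, and each nerve left out. Crkl and Ier2 of the lists matched no row. Each nerve counted as 1 sample, since the series describes biological replicates. Pairs of replicates differed by more than sampling noise (chi-square per degree of freedom 3.38 to 12.4). This does not show that they came from separate rats, since library preparation can also add spread.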

Additional observations from a re-analysis of the deposited data

How the results depend on the processing

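The number of members at the study limits was 0 in the main fit and in every alternative except a p limit alone with no fold limit, which gave 1 (Erbb3). The number of members lower at an adjusted p under 0.05 was 1 (Erbb3) and became 0 with DESeq2, with limma on log2(FPKM + 0.1) or log2(FPKM + 1) and with the replicate number as a block, and ranged from 0 to 1 when each nerve in turn was omitted. The number of members higher was 0 throughout. The number of other pathway genes that were higher was 6, and 3 to 8 when each nerve in turn was omitted. The log2 fold change of Btc changed sign on omitting intact nerve 2 (0.179) or crushed nerve 3 (0.0745), and the values without each nerve ran from -0.442 to 0.179. The other 7 members with counts kept their sign in all 12 alternatives, with Hbegf between 0.0689 and 0.0929 and Nrg1 between -0.374 and -0.114. The order of the 8 members by level was the same in normalized counts per kilobase. Why these values shifted was not tested.

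Same-numbered nerves did not deviate together (correlations of -0.00965, -0.00262 and 0.0709 across genes), and the labels do not say that a number marks 1 rat. With the number as a block (paired analysis), Erbb3 had the same log2 fold change of -0.592 and an adjusted p = 0.0525 in edgeR, and 300 genes in place of 387 passed an adjusted p of 0.05. Depth limits Btc, Nrg2 and Egf, which had 5 to 49 counts per nerve.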
